A study of Mus musculus with 6 samples.

Results

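Akap3, Akap4, Odf1, Odf2, Odf3, Odf4, Smcp and Cabs1 are 8 genes for accessory structures of the mouse sperm tail, and they are 8 of the 32285 genes counted in these single-cell libraries of testis. The genes were grouped by what their products are known to be. Testes of 8-week-old C57BL/6 wild-type males (C57BL/6N in the study's methods) were dissociated after 2 weeks on food high in fat (HFD) or low in fat (LFD), 3 libraries from each and no other treatment, and the study asked whether the short diet changed expression in the testis. Every library was made to hold about 10000 cells, and molecules were counted as unique molecular identifiers (UMIs). The diets follow the sample labels, but the file names swap the diets in each of the 6. The numbers of cells that the study lists per library match the barcodes of these files under the file names and not under the labels. HFD and LFD below therefore mean the libraries labelled so, and every diet difference changes sign if the file names are right.

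The flagellum of a sperm carries structures that other cilia lack. Outer dense fibres run along the axoneme, a fibrous sheath encloses them in the principal piece, and a sheath of mitochondria with a keratin-like capsule wraps the midpiece. Their parts are made late, while the spermatid nucleus condenses and histones give way to transition proteins (Tnp1, Tnp2) and then protamines (Prm1, Prm2). Transcription stops during that condensation, so later protein synthesis draws on mRNAs stored beforehand, and Smcp is a textbook case of such delayed translation.

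The fibrous sheath members are Akap4, the X-linked main scaffold that anchors protein kinase A (ENSMUSG00000050089, chrX:7067519-7078609, plus strand, GRCm38), and Akap3, the anchoring protein that enters the sheath before it (ENSMUSG00000030344, chr6:126853098-126874308, plus strand). Cabs1 is a calcium-binding protein of elongate spermatids and the tail (ENSMUSG00000007907, chr5:87979439-87981544, plus strand). The dense fibre members are Odf1, a small heat shock-like protein of the fibres (ENSMUSG00000061923, chr15:38219203-38226735, plus strand), and Odf2, which is also a scaffold of centriole appendages in many other cells (ENSMUSG00000026790, chr2:29889221-29931746, plus strand). Odf3 (ENSMUSG00000025482, chr7:140847805-140851018, plus strand) and Odf4 (ENSMUSG00000032921, chr11:68921835-68927081, minus strand) complete the dense fibre names. Smcp is the cysteine-rich protein of the mitochondrial capsule (ENSMUSG00000074435, chr3:92583867-92588997, minus strand). In the annotation, Odf3 lies within the span of Gm45785 on the opposite strand and Cabs1 within that of Gm28434 on the same strand. Neither of those genes was among the genes counted.

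The promoters of the members were read for shared letters, because groups of them moved together over the stages. RefSeq (GRCm38.p6) gave promoters of 300 bases, 250 before the transcription start and 50 after it, for 7 of the 8 members. Odf1 had no entry, so its promoter was not read. A list of 4 motifs was searched on both strands. The full cAMP response element TGACGTCA, in 1.79% of all 32851 promoters, was in none of the 7 genes. The shorter element TGACG was in Odf2 alone (20.8% of all promoters), the X-box core GTTGCC in Odf3 alone (12.5%) and the TATA box letters TATAAA in Cabs1 alone (13.6%). The Cabs1 match was on the strand opposite to transcription, starting 197 bases before the start. After the sequences were seen, TGATGTCA was searched as well. It was in 3 of the 7 genes, against 3.62% of all promoters: 2 copies in Akap3, 1 in Akap4 and 1 in Smcp. The following promoters are printed 5′ to 3′ because they hold that element, with its letters in capitals, and Odf3 is added with its X-box core in capitals because its UMIs rose and fell with those of Akap3.
Akap3, chr6:126852848-126853147, plus strand: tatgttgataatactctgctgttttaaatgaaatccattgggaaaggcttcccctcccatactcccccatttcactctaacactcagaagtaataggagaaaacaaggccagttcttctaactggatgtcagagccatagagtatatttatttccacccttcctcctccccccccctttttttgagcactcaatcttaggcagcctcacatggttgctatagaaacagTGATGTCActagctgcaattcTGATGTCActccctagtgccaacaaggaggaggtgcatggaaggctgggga
Akap4, chrX:7067265-7067564, plus strand: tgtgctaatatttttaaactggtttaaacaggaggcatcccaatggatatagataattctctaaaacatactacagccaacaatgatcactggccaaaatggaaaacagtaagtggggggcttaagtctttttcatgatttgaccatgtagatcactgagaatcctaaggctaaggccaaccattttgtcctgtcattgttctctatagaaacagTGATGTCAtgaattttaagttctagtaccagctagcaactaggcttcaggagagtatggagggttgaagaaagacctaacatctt
Smcp, chr3:92589024-92589323, minus strand: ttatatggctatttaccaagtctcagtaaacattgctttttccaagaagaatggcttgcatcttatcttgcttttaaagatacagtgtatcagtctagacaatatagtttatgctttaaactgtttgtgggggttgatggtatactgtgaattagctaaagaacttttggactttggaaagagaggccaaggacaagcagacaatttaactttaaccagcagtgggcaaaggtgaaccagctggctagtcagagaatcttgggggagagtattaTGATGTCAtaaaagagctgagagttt
Odf3, chr7:140847666-140847965, plus strand: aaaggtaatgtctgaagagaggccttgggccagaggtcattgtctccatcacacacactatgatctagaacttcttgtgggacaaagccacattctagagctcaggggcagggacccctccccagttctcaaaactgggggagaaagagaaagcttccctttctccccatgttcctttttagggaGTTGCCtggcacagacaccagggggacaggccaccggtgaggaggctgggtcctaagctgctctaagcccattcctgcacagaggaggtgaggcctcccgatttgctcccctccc

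Akap3 and Akap4 shared an identical stretch of 20 bases on the strand of transcription, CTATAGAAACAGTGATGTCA, starting 34 bases before the start of Akap3 and 47 bases before that of Akap4. Of the 32851 promoters, 2 held this stretch, those of Akap3 and Akap4. The next longest stretch shared by any pair of the 7 genes was 11 bases, between Akap4 and Odf4. These are matches of letters and say nothing of which factor, if any, uses them. Akap4 and Odf2 have more than one RefSeq start. Motifs were read at each start, and shared stretches at the first start only. TGATGTCA was at start 1 of the 2 of Akap4, and TGACG at starts 1 and 2 of the 4 of Odf2. Akap4 is printed at the first.

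Barcodes were placed in stages by UMIs of marker genes that hold none of the 8 members. In all, 10244 of 48939 barcodes (20.9%) met one gate only, of which 5924 were spermatids: 1217 early round, 1139 later round, 673 starting elongation, 1602 elongating (Tnp2 at 0.4 or more of Tnp2 and Prm2 UMIs) and 1293 late condensing (under 0.4). The stages before them were pachytene (736) and late (1041) spermatocytes. Another 1614 barcodes were spermatogonia and early prophase cells, whose levels are not described here. Tail-gene UMIs in 251 macrophage, 518 Sertoli and 160 Leydig, peritubular or stromal barcodes are called free RNA below. No doublets were removed, and the source of those UMIs was not tested. Libraries held 5753 to 11095 barcodes and 39196921 to 95845514 UMIs. Both replicate 1 libraries stood apart: haemoglobin UMIs were at most 0.0104 per 1000000 there against 24.1 to 74.2 in the other 4, and late condensing barcodes made up 6.53% and 5.21% of those libraries against 0.258% to 1.57%. Late condensing spermatids numbered 21 in HFD replicate 2. Median UMIs per barcode fell from 39070 at starting elongation to 17756 in elongating and 8376 in late condensing spermatids, so each gene is given on 2 scales: CPM, its UMIs per 1000000 UMIs of the stage, and UMIs per barcode. Somatic markers were counted in the spermatids too, with higher ranges in late stages: the 8 macrophage markers summed to 1.27 to 19.8 CPM over libraries in early round and 36.4 to 87.0 CPM in late condensing spermatids, where Lyz2 was at 0. The 7 Sertoli markers summed to 3.51 to 13.8 and 9.16 to 131 CPM, with none at 0, in those stages. Their part in the results was not tested.

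Together the 8 genes took 0.173% ± 0.0178 of all UMIs in late spermatocytes (mean ± SD, n = 6 libraries throughout) and 2.83% ± 0.334 in late condensing spermatids. The share was 0.362% in early round, 0.651% in later round, 0.916% at starting elongation and 1.42% in elongating spermatids. No library of one spermatid stage overlapped with the stage before it. The members divided by time: Odf2 and Odf4 were present before meiosis ended, Akap3, Akap4, Odf1, Odf3 and Smcp rose in early round spermatids, Cabs1 rose last, and Akap3 and Odf3 were near the free-RNA level in late condensing spermatids while Akap4, Odf1, Odf2, Smcp and Cabs1 were still there.

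**Figure D1:**
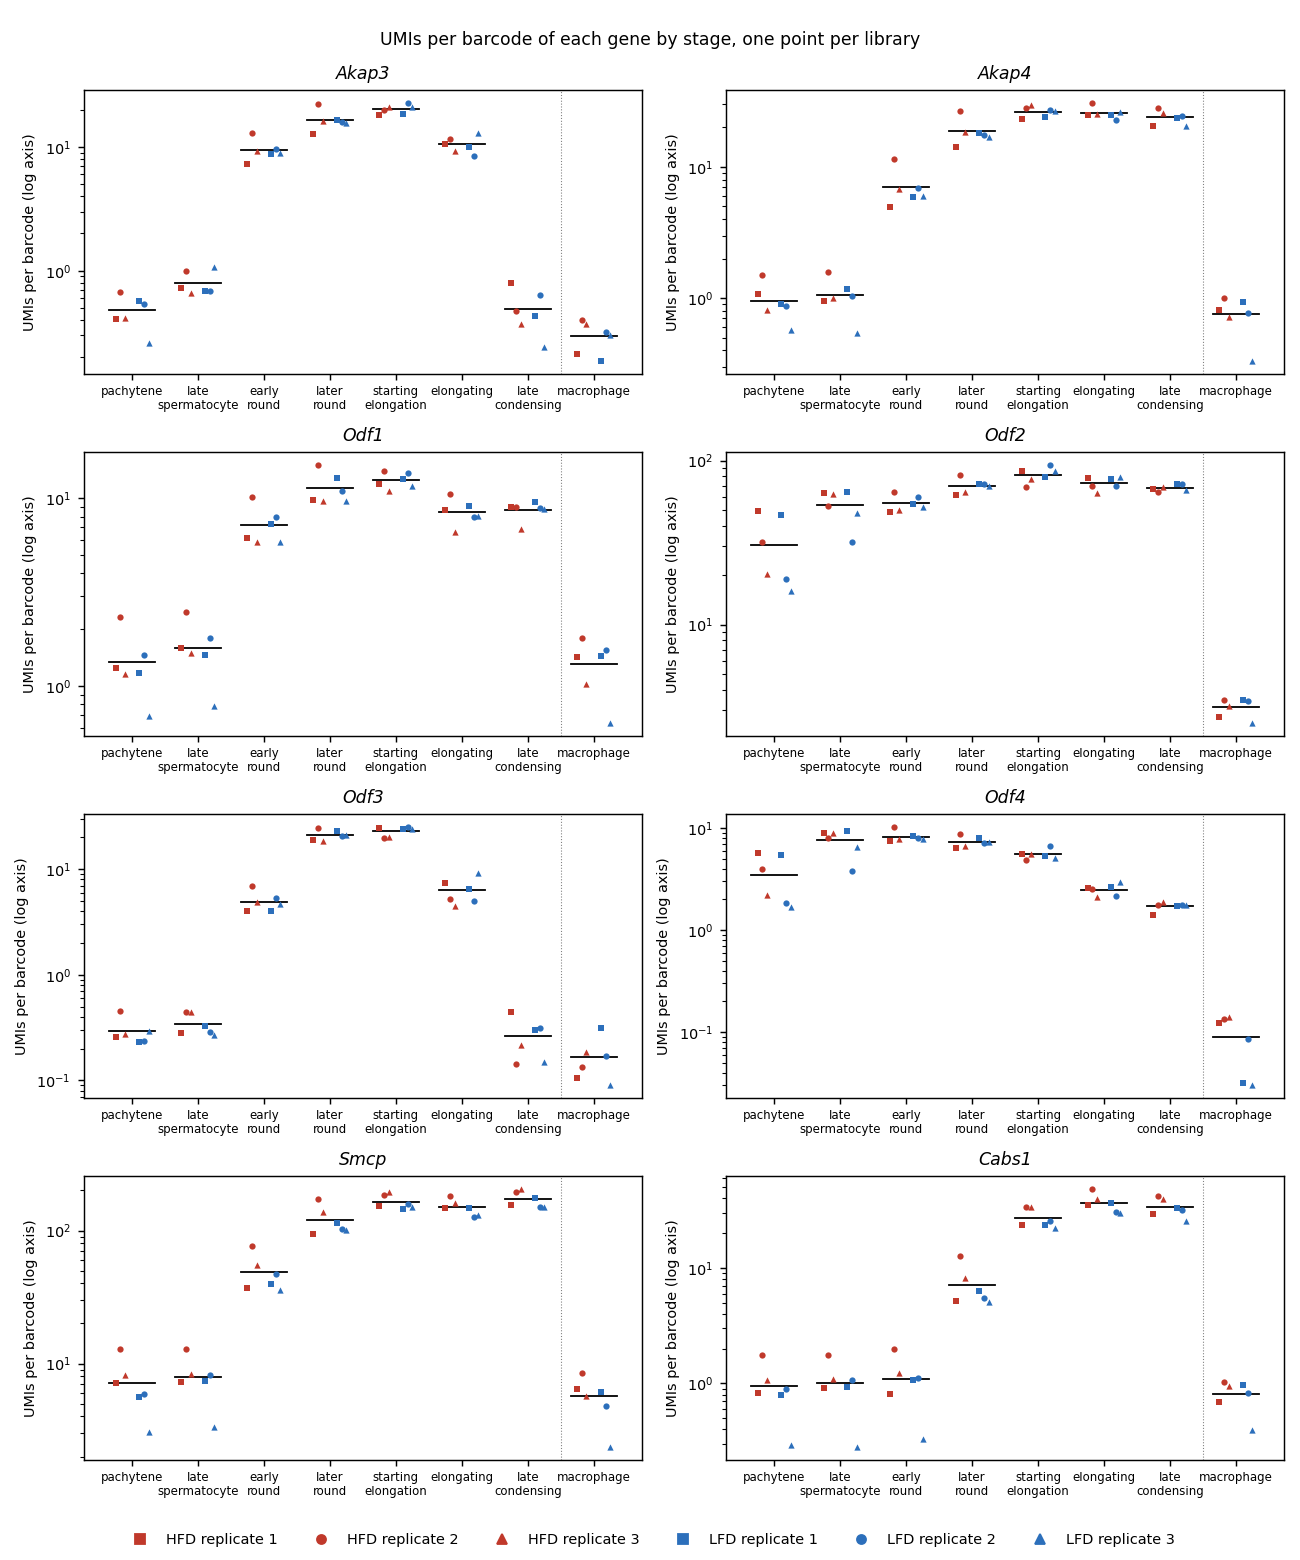
UMIs per barcode (log axis) of each of the 8 genes in 7 germ cell stages and in macrophages, one point per library (red HFD, blue LFD by the labels; squares, circles and triangles are replicates 1, 2 and 3) with a bar at the mean of the 6 libraries. Akap3 and Odf3 fall back to near the macrophage level in late condensing spermatids, and Akap4, Odf2, Smcp and Cabs1 do not.

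Free RNA came first, because tail mRNAs were counted in cells that do not make a tail. Macrophage barcodes, with a median of 3379 UMIs, held 5.67 ± 2.03 Smcp UMIs, 3.13 ± 0.412 Odf2 UMIs and 1.31 ± 0.416 Odf1 UMIs per barcode. Akap4 stood at 0.763 ± 0.235, Cabs1 at 0.813 ± 0.237, Akap3 at 0.299 ± 0.0848, Odf3 at 0.167 ± 0.0802 and Odf4 at 0.0901 ± 0.0497. After thinning each barcode to 1000 UMIs, 72.5% of macrophage barcodes still held a Smcp UMI (95% exact binomial interval 66.5% to 77.9%), against 97.2% unthinned. Intervals cover counting error only. Sertoli barcodes held more, at 13.7 ± 9.05 Smcp, 6.14 ± 4.21 Odf2 and 2.10 ± 1.18 Cabs1 UMIs per barcode. Akap3 was at 0.366 (0.176 to 3.00) and Odf3 at 0.284 (0.189 to 3.75) UMIs per Sertoli barcode (median of the libraries, lowest and highest in parentheses), and the highest value of both came from HFD replicate 3, which had 20 Sertoli barcodes. Leydig, peritubular or stromal barcodes, 3 to 65 per library, held 4.81 ± 1.47 Smcp UMIs and 0.303 ± 0.208 Akap3 UMIs. If one pool of free RNA is the source, its genes keep one ratio in every cell type, so each member was also set against Prm1, which spermatocytes and somatic cells do not make.

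By this ratio Odf2 and Odf4, a scaffold shared with centrioles and a dense fibre protein, were well above the free RNA in spermatocytes. The ratios of the other 6 members overlapped with it. Odf2 had 491 to 1427 UMIs per 1000 Prm1 UMIs in pachytene spermatocytes and 696 to 2999 in late spermatocytes, against 95.7 to 170.4 in macrophages. Odf4 had 47.8 to 165 and 83.0 to 407, against 0.922 to 6.58. In Sertoli barcodes the ratios were 80.3 to 193 for Odf2 and 3.60 to 12.03 for Odf4, also below every spermatocyte library. For both genes the lowest spermatocyte library lay above the highest macrophage library, and 6 of 6 libraries were higher in each stage (exact sign-flip permutation test over libraries, two-sided p = 0.03125, the smallest that 6 libraries allow; Benjamini-Hochberg adjusted over 16 comparisons 0.1). The other 6 members gave ratios that overlapped with those of macrophages, and Cabs1 in pachytene spermatocytes was the lower in 6 of 6 libraries (same exact permutation test, p = 0.03125, adjusted 0.1). Smcp ranged over 176 to 211 in late spermatocytes and 149 to 269.7 in macrophages, and Akap4 over 22.8 to 34.0 and 22.6 to 34.0. Akap3 was at 15.04 to 67.3 in late spermatocytes, where LFD replicate 3 alone stood above 20.5, the highest macrophage value.

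**Figure D2:**
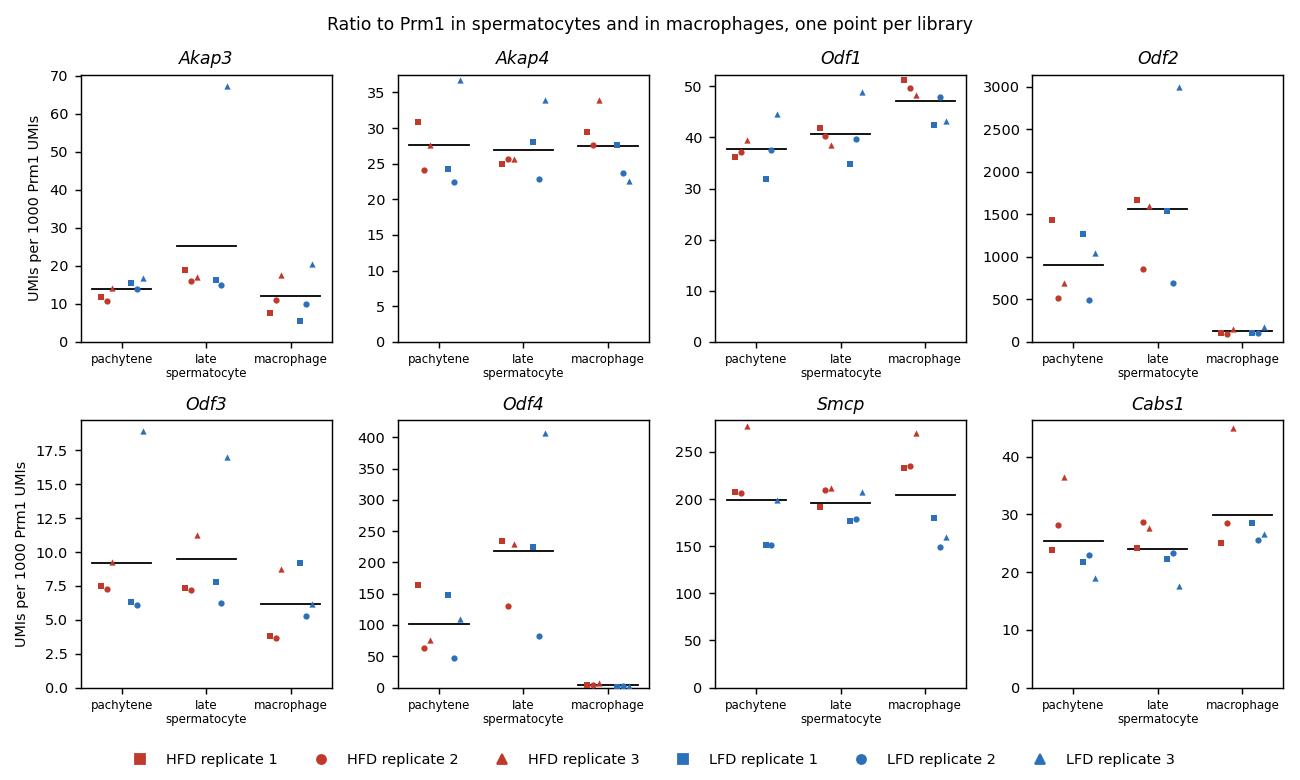
UMIs of each gene per 1000 Prm1 UMIs in pachytene spermatocytes, late spermatocytes and macrophages, one point per library with a bar at the mean (colours and symbols as the legend gives). Odf2 and Odf4 stand above the macrophage ratio in every library, and the other 6 genes overlap with it.

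Odf2 was already near its early round level in late spermatocytes. Its UMIs per barcode, given here as the median of the 6 libraries with the lowest and highest in parentheses, were 26.2 (16.1 to 49.3) in pachytene and 57.5 (31.8 to 64.4) in late spermatocytes, and 53.3 (48.3 to 64.2) in early round spermatids. The step into early round spermatids did not pass the test (log2 change 0.18 ± 0.10, adjusted p = 0.082; edgeR quasi-likelihood test with library as a block and counts scaled by TMM, adjusted over all 14260 genes, here and for each step below unless said). Odf2 then rose to later round (0.49 ± 0.10, adjusted p = 1.4e-05) and to starting elongation (0.62 ± 0.10, adjusted p = 2.0e-07), where it reached 82.6 (69.4 to 93.9) UMIs per barcode. Odf4 was highest early. It was at 96.3 (80.0 to 108) CPM in pachytene spermatocytes, 171 (158 to 196) in late spermatocytes and 212 (195 to 235) in early round spermatids, its highest stage by CPM. Per barcode it held 8.42 (3.79 to 9.38) UMIs in late spermatocytes, 7.89 (7.40 to 10.2) in early round spermatids and 1.77 (1.42 to 1.90) in late condensing spermatids, still above every macrophage library.

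The step from late spermatocytes to early round spermatids was the largest rise for Akap3, Akap4, Odf1, Odf3 and Smcp. With TMM scaling 6 of the 8 members rose and 0 fell, and Odf2 and Cabs1 did not pass; among all genes 35.0% rose and 42.9% fell. Per barcode, without TMM, 5 members rose and 0 fell, against 30.6% and 43.9% of all genes; Odf4 was the member lost. The fibrous sheath gene Akap3 went from 0.704 (0.662 to 1.08) to 9.12 (7.31 to 12.9) UMIs per barcode, a log2 change of 3.68 ± 0.16, adjusted p = 1.2e-26, or 12.8-fold. No early round library overlapped with a late spermatocyte library. Odf3, a dense fibre gene, went from 0.305 (0.272 to 0.442) to 4.74 (3.98 to 6.86), a log2 change of 3.94 ± 0.17, adjusted p = 8.8e-27. Akap4 rose from 1.02 (0.543 to 1.58) to 6.38 (4.94 to 11.6), a log2 change of 2.80 ± 0.15, adjusted p = 3.0e-23. Smcp rose from 7.78 (3.33 to 12.8) to 43.3 (35.6 to 76.3), a log2 change of 2.69 ± 0.17, adjusted p = 6.7e-20 and Odf1 from 1.55 (0.783 to 2.47) to 6.70 (5.83 to 10.2), a log2 change of 2.23 ± 0.15, adjusted p = 7.8e-19. By the Prm1 ratio the late spermatocyte values of these 5 genes overlapped with the free RNA, so each fold is a change against that background. Cabs1 stayed there: it had 1.09 (0.333 to 1.98) UMIs per barcode in early round spermatids and 0.892 (0.394 to 1.03) in macrophages, and its step did not pass (0.13 ± 0.18, adjusted p = 0.52).

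From early to later round spermatids, when the acrosome spreads over the nucleus, Cabs1 and Odf3 rose most. In this step 7 members rose and 0 fell on both scales, against 32.0% and 33.3% of all genes with TMM and 27.0% and 33.7% per barcode. Cabs1 reached 5.93 (5.06 to 12.8) UMIs per barcode, a log2 change of 2.89 ± 0.18, adjusted p = 6.3e-20, above all 6 early round libraries. Odf3 reached 20.8 (18.7 to 24.6), a log2 change of 2.24 ± 0.14, adjusted p = 5.3e-20, Akap4 17.8 (14.1 to 26.6), a log2 change of 1.56 ± 0.13, adjusted p = 5.7e-15 and Smcp 109 (93.9 to 172), a log2 change of 1.46 ± 0.16, adjusted p = 2.7e-11. Akap3 and Odf1 rose less, by 0.94 ± 0.13, adjusted p = 2.5e-08 and 0.79 ± 0.14, adjusted p = 1.9e-06. Odf4 was the member that did not pass (-0.03 ± 0.08, adjusted p = 0.74).

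Starting elongation was set by Hils1 and other genes of the first nuclear remodelling (at least 25 per 10000 UMIs). Its gate also needed summed transition protein and protamine UMIs of 100 to under 1000 per 10000. Here the scale began to decide the count. With TMM 7 members rose and 0 fell (28.7% and 26.0% of all genes). Per barcode 3 rose, Cabs1, Akap4 and Smcp, and 1 fell, Odf4 (19.6% and 45.7% of all genes). Cabs1 rose on both, by 2.37 ± 0.17, adjusted p = 8.9e-18 with TMM and 1.98 ± 0.16, adjusted p = 3.2e-19 per barcode, to 24.6 (22.1 to 33.8) UMIs per barcode. Akap3 at 20.3 (18.1 to 22.7) and Odf3 at 23.9 (19.8 to 25) UMIs per barcode were at their highest here. Their TMM changes of 0.69 ± 0.13 and 0.51 ± 0.13 passed and their per barcode changes of 0.29 ± 0.15, adjusted p = 0.085 and 0.12 ± 0.16, adjusted p = 0.52 did not.

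In elongating spermatids the genes parted. With TMM scaling 7 members rose and 1, Odf3, fell (27.4% and 33.1% of all genes). Per barcode 1 rose, Cabs1, and 4 fell, Akap3, Odf1, Odf3 and Odf4 (3.49% and 81.3%), where the median of all genes moved by -0.03 with TMM and by -1.43 per barcode. Akap4 was a member whose count per barcode did not pass, at 26.8 (23.0 to 29.5) and then 25.2 (22.7 to 30.7) UMIs, a log2 change of -0.04 ± 0.14, adjusted p = 0.82, while its CPM was 662 (591 to 754) and then 1148 (1069 to 1365). Smcp was likewise at 155 (145 to 194) and then 148 (126 to 182) UMIs per barcode, a log2 change of -0.14 ± 0.14, adjusted p = 0.33, and Odf2 at 73.7 (63.2 to 78.9), a log2 change of -0.17 ± 0.14, adjusted p = 0.23. Cabs1 rose to 35.6 (29.6 to 48.1) (0.43 ± 0.16, adjusted p = 0.0086 per barcode; 1.84 ± 0.16, adjusted p = 3.2e-14 with TMM). Odf3 fell on both scales, to 5.85 (4.50 to 9.13) UMIs per barcode (-1.87 ± 0.16, adjusted p = 2.2e-18 per barcode; -0.48 ± 0.13, adjusted p = 0.0014 with TMM). Akap3, Odf1 and Odf4 had no direction apart from the scale. Odf1 rose with TMM and fell per barcode (-0.56 ± 0.14, adjusted p = 0.00025). Akap3 changed by 0.47 ± 0.13, adjusted p = 0.0023 with TMM, by -0.10 ± 0.12, adjusted p = 0.47 with library totals alone and by -0.94 ± 0.15, adjusted p = 5.6e-08 per barcode. Odf4 changed by 0.25 ± 0.09, adjusted p = 0.011, -0.32 ± 0.07, adjusted p = 3.9e-05 and -1.16 ± 0.15, adjusted p = 8.8e-11 on the same scales.

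Late condensing spermatids kept 5 of the mRNAs, and 2 were near the level of free RNA. Akap3 fell from 10.4 (8.41 to 13.1) to 0.455 (0.241 to 0.790) UMIs per barcode, with no overlap of libraries. Macrophages had 0.311 (0.188 to 0.4), and the late condensing range overlapped with it. The log2 change was -4.29 ± 0.19, adjusted p = 1.5e-36 per barcode, or 19.6-fold lower, and -2.99 ± 0.16, adjusted p = 3.9e-21 with TMM. Odf3 fell from 5.85 (4.50 to 9.13) to 0.257 (0.143 to 0.444) (-4.37 ± 0.20, adjusted p = 3.3e-35 per barcode, 20.7-fold lower; -3.02 ± 0.17, adjusted p = 1.7e-20 with TMM). After thinning to 1000 UMIs, 4.02% of late condensing barcodes held an Akap3 UMI (26.0% unthinned), against 7.97% of macrophage barcodes (23.9% unthinned). For Odf3 the thinned shares were 3.17% and 6.37%. In Sertoli barcodes they were 10.2% for Akap3 and 11.0% for Odf3. Neither thinned late condensing share was above that of macrophages or Sertoli cells. Median UMIs were 8376 in late condensing, 3379 in macrophage and 1922 in Sertoli barcodes, and thinning dilutes free RNA more in deeper barcodes. The thinned shares, pooled over libraries, therefore cannot place either gene at the free-RNA level. The macrophage and Sertoli markers counted in this stage are given above, and their part in the fall was not tested. Without both replicate 1 libraries, which gave most late condensing barcodes, the TMM changes were -3.52 ± 0.18, adjusted p = 3.3e-21 for Akap3 and -3.60 ± 0.20, adjusted p = 2.5e-20 for Odf3.

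The 5 that stayed did so in a stage where 63.1% of all genes fell per barcode and 0.147% rose; of the 8 members 3 fell, Akap3, Odf3 and Odf4, and 0 rose. Smcp held 148 (126 to 182) UMIs per barcode in elongating and 166 (149.5 to 205) in late condensing spermatids (0.21 ± 0.14, adjusted p = 0.2). Akap4 held 24.2 (20.5 to 28.0), a log2 change of -0.12 ± 0.14, adjusted p = 0.48, Odf1 8.95 (6.84 to 9.57), a log2 change of 0.04 ± 0.14, adjusted p = 0.81, Odf2 68.0 (64.6 to 72.3), a log2 change of -0.09 ± 0.14, adjusted p = 0.6 and Cabs1 32.4 (25.3 to 42.3), a log2 change of -0.13 ± 0.16, adjusted p = 0.49. None of these 5 passed the test in either direction on that scale, and their libraries overlapped between the stages. With TMM the same 5 and Odf4 rose and 2 fell (28.9% and 26.9% of all genes), by 1.38 ± 0.16, adjusted p = 2.4e-10 for Smcp and 1.22 ± 0.14, adjusted p = 2.0e-10 for Odf1. The CPM of Smcp was 15633 (11952 to 19757) in this stage. The 5 mRNAs thus took a larger share of a smaller total.

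**Figure D3:**
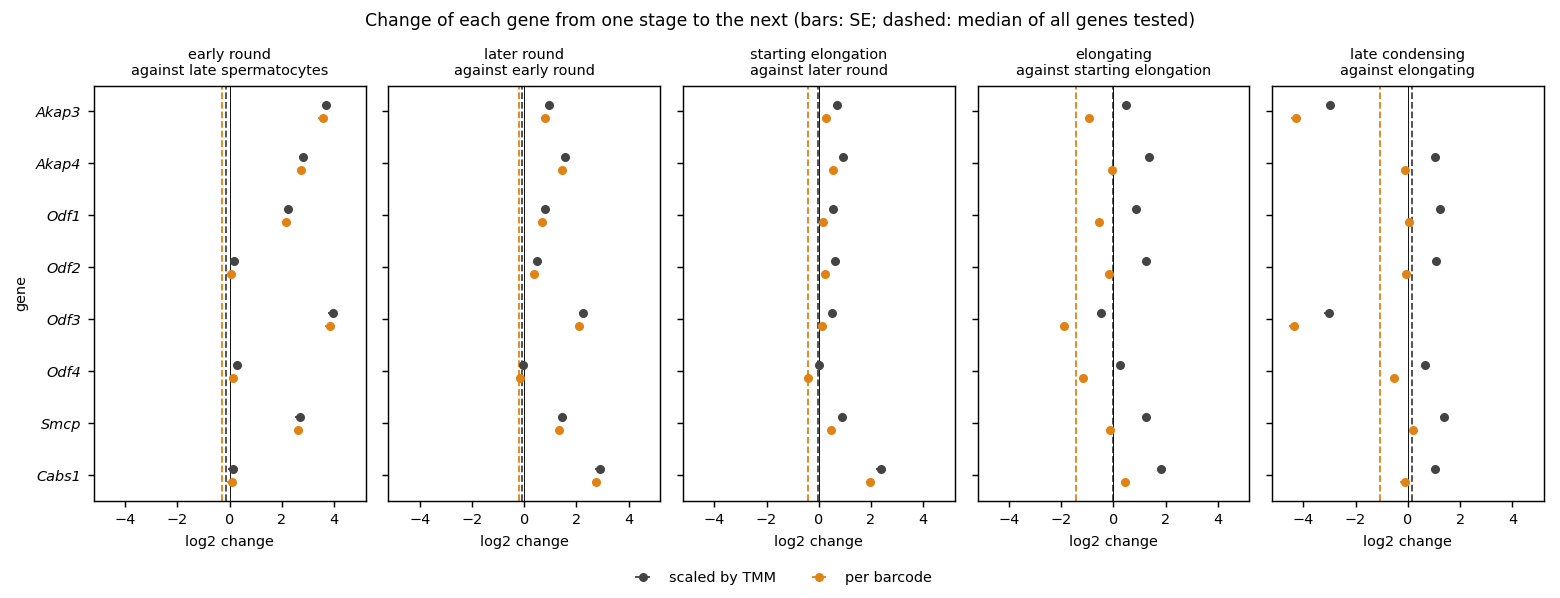
Log2 change of each gene from one stage to the next, with counts scaled by TMM (grey) or per barcode (orange); bars are SEs, often smaller than the points, and dashed lines are the median of all genes tested. In the last step Akap3 and Odf3 lie near -3 (TMM) and below -4 (per barcode), and Akap4, Odf1, Odf2, Smcp and Cabs1 lie near 0 per barcode, to the right of the median of all genes.

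Within condensing spermatids the pooled levels of Akap3 and Odf3 fell from step to step. Barcodes were ordered by the share of Tnp2 among Tnp2 and Prm2 UMIs, which falls as condensation goes on, and their UMIs were pooled over libraries. Akap3 stood at 10.3 UMIs per barcode at a share of 0.4 or more, 2.56 at 0.3 to 0.4, 0.790 at 0.1 to 0.3, 0.304 at 0.02 to 0.1 and 0.245 under 0.02. Odf3 stood at 6.55, 1.30, 0.336, 0.265 and 0.157 in the same steps. At 0.3 to 0.4 the 4 libraries with enough barcodes spread widely, over 0.381 to 5.24 for Akap3 and 0.190 to 2.56 for Odf3. Smcp was at 147 in the first step and 183 in the last, and lowest at 0.02 to 0.1, with 145.5. Akap4 was at 25.1, 31.9, 29.8, 18.3 and 20.1 in the steps in order. The other dense fibre genes moved less than Odf3. Over the steps Odf1 lay between 7.60 and 11.4, Odf2 between 57.5 and 88.9 and Odf4 between 1.29 and 2.52 UMIs per barcode. Cabs1 lay between 27.4 and 38.2. The steps held 1602, 145, 214, 494 and 440 barcodes, but only 6, 4, 3, 4 and 4 libraries had 20 or more in them. No test was run on the steps.

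**Figure D4:**
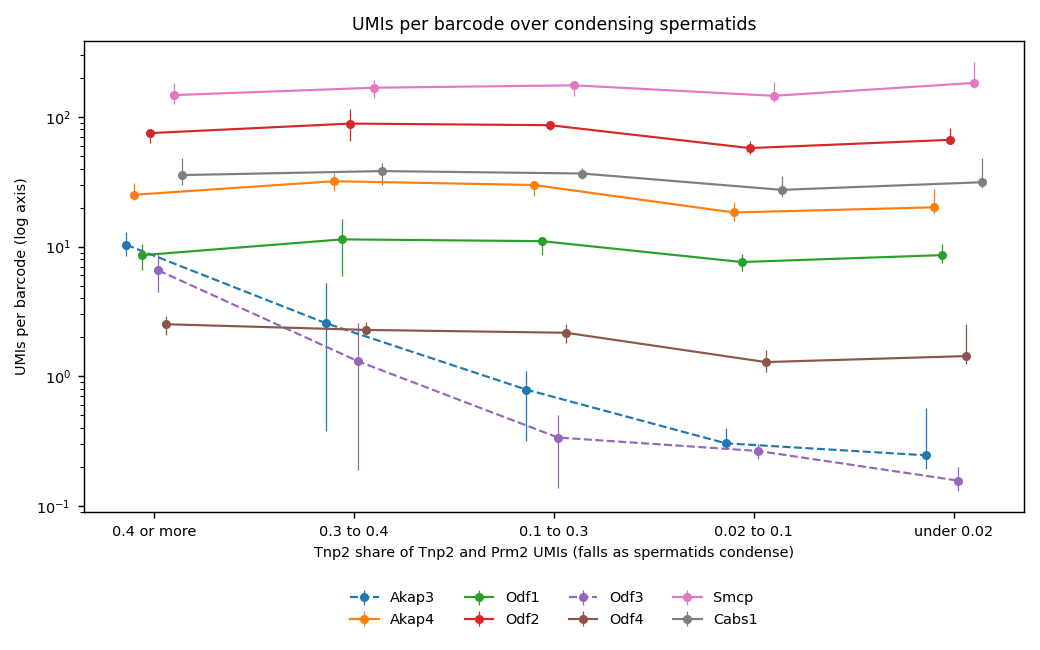
UMIs per barcode (log axis) of the 8 genes over 5 steps of the Tnp2 share, pooled over libraries; vertical lines span the libraries with at least 20 barcodes in the step. Akap3 and Odf3 (dashed) fall from 10.3 and 6.55 to 0.245 and 0.157, and Smcp is at 147 in the first step and 183 in the last.

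Over 62 sums of a library and a stage, the levels of the members (log2 of CPM + 1) were most alike for Akap4 and Smcp and for Akap3 and Odf3. Pearson's r was 0.992 between Akap4 and Smcp, 0.964 between Akap3 and Odf3 and the lowest of the 28 pairs was 0.0226 between Odf1 and Odf4. Odf1 was at 0.941 and Cabs1 at 0.913 with Smcp, Akap3 at 0.630 with Smcp, and Odf2 at 0.766 with Smcp and 0.682 with Odf4. These are descriptions, since the sums share libraries and depth. The sums also took in spermatogonia and early prophase, spermatocytes, and somatic types with at least 20 barcodes in a library. In somatic sums the members were read as free RNA, and in spermatocytes all but Odf2 and Odf4 overlapped with it. The part of a shared free-RNA ratio in these r values and in those below was not tested. Among 11880 genes with a mean of at least 5 CPM, those most like Akap4 were 1700009N14Rik (r = 0.991), Gapdhs, the sperm glycolytic enzyme of the fibrous sheath (0.990), and Gsg1 (0.989). Smcp was most like 1700009N14Rik (0.993), Gsg1 (0.990) and Iqcf4 (0.989). Akap3 was most like Erich3 (0.985), the testis kinase gene Tssk1 (0.984) and 1700093K21Rik (0.982), and Odf3 like Rnf151 (0.981), 1700093K21Rik (0.979) and BC049762 (0.976). The nearest gene was Oaz3, the testis antizyme, for Odf1 (0.980), Ppp1r11 for Odf2 (0.961), 1700029F12Rik for Odf4 (0.944) and Spata3 for Cabs1 (0.991). None of these genes was a stage marker.

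Other genes of the tail's accessory structures were read in the same fit, from a list of 33 genes of which 32 passed the filter on low counts in that fit. Entering early round spermatids 20 rose, 6 fell and 6 did not pass with TMM, where 35.0% and 42.9% of all genes rose and fell (median log2 change 0.73, against -0.13 for all genes tested). Akap14 (5.52 ± 0.14), Odf3l1 (4.92 ± 0.14) and Cabyr, a calcium-binding protein of the fibrous sheath (4.65 ± 0.14), rose most. Cntrob, a centrosome protein of the head-tail junction, fell most (-4.78 ± 0.32), followed by Slc26a8, an anion transporter of the annulus (-0.99 ± 0.10), and Spag5 (-0.83 ± 0.10). Of the 9 fibrous sheath genes 7 rose and 0 fell in this step.

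In later round spermatids 22 of the 32 rose and 5 fell with TMM (32.0% and 33.3% of all genes), and 17 rose and 5 fell per barcode (27.0% and 33.7%). The rises were led by Tppp2 (2.13 ± 0.20), Spem1 (2.03 ± 0.18) and Tbc1d21, a mitochondrial sheath gene (1.70 ± 0.11); Ccdc38 (-1.45 ± 0.10), Odf2l (-1.31 ± 0.10) and Spag5 (-0.84 ± 0.11) fell most. At starting elongation 20 rose and 8 fell with TMM (28.7% and 26.0% of all genes), and 9 rose and 12 fell per barcode (19.6% and 45.7%). Odf3b (4.61 ± 0.20), Spem1 (2.69 ± 0.16) and Tppp2 (2.32 ± 0.19) rose most, and Odf2l (-1.83 ± 0.15), Fsip1 (-1.22 ± 0.10) and Fsip2 (-1.15 ± 0.11), which interact with fibrous sheath proteins, fell most. Odf3b carries a name close to that of Odf3 and rose as Odf3 levelled off.

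In elongating spermatids 17 of the 32 rose and 10 fell with TMM (27.4% and 33.1% of all genes). Per barcode 1 rose and 25 fell, near the shares of all genes (3.49% and 81.3%). Odf3b rose on both scales (3.06 ± 0.12 and 1.65 ± 0.17). Spata18 (1.69 ± 0.11) and Tppp2 (1.62 ± 0.19) rose with TMM alone, and Akap14 (-2.72 ± 0.13), Fsip1 (-2.40 ± 0.12) and Odf3l1 (-2.20 ± 0.12) fell most. In late condensing spermatids 15 rose and 11 fell with TMM (28.9% and 26.9% of all genes), and 1 rose, Spem1 (0.39 ± 0.16), and 26 fell per barcode, with a median of -0.95 against -1.07 for all genes, of which 0.147% and 63.1% rose and fell. Spem1 (1.57 ± 0.15), Tppp2 (1.53 ± 0.19) and Oaz3 (1.40 ± 0.15) rose most with TMM. Spag4, an outer dense fibre binding partner (-2.87 ± 0.15), the mitochondrial sheath gene Spata19 (-2.41 ± 0.15) and Ropn1, a fibrous sheath gene (-1.90 ± 0.14), fell most, in the same step as Akap3 and Odf3.

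Diet was compared within each spermatid stage and over all barcodes of a library, and no member passed the test between HFD and LFD with all 6 libraries. Over all barcodes, fewer spermatids and less RNA per spermatid cannot be told apart. By edgeR 0 genes passed in each of the 6 comparisons (0% of 5453 to 20727 genes), with 471 genes at an unadjusted p under 0.05 over all barcodes and 691, 767, 568, 271 and 70 in the 5 stages in order; DESeq2 also called 0 in each. The members' log2 differences (HFD minus LFD) lay between -0.20 and 0.46 in early round, -0.19 and 0.41 in later round and -0.22 and 0.28 at starting elongation. They lay between -0.19 and 0.37 in elongating and -0.13 and 0.49 in late condensing spermatids, and between -0.19 and 0.31 over all barcodes. That the libraries are separate mice is stated in the study's methods and not in the labels.

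Cabs1, Smcp and Odf2 came nearest to a difference, and the library labelled HFD replicate 1 decided it. Cabs1 in later round spermatids was at 144, 234 and 198 CPM in HFD replicates 1, 2 and 3 and at 149, 139.5 and 135 CPM in LFD replicates 1, 2 and 3. HFD replicates 2 and 3 were above every LFD library and HFD replicate 1 was among them, so the groups overlapped (log2 difference 0.41 ± 0.14, adjusted p = 0.69). At starting elongation Cabs1 was at 599, 807 and 864 CPM in HFD replicates 1, 2 and 3 and at 614, 619 and 592 CPM in LFD replicates 1, 2 and 3, again with HFD replicate 1 among the LFD libraries (0.28 ± 0.11, adjusted p = 0.79). In early round spermatids, where it was at the level of free RNA, its difference was 0.46 ± 0.29, adjusted p = 0.67.

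Smcp gave the same order. It was at 2646, 3145 and 3364 CPM in HFD replicates 1, 2 and 3 and at 2676, 2606 and 2668 CPM in LFD replicates 1, 2 and 3 in later round spermatids (0.18 ± 0.09, adjusted p = 0.69), with HFD replicate 1 inside the LFD range. In early round spermatids it was at 1107, 1453 and 1478 CPM in HFD replicates 1, 2 and 3 and at 1043, 1211 and 1069 CPM in LFD replicates 1, 2 and 3 (0.26 ± 0.11, adjusted p = 0.66). Its difference at starting elongation was 0.17 ± 0.10, adjusted p = 0.79. Odf2 went the other way: in later round spermatids it was at 1732, 1499 and 1558 CPM in HFD replicates 1, 2 and 3 and at 1703, 1819.7 and 1866 CPM in LFD replicates 1, 2 and 3, with HFD replicates 2 and 3 below every LFD library and HFD replicate 1 above LFD replicate 1 (-0.19 ± 0.09, adjusted p = 0.69). Its differences in early round spermatids and at starting elongation were -0.20 ± 0.10, adjusted p = 0.66 and -0.20 ± 0.12, adjusted p = 0.79.

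**Figure D5:**
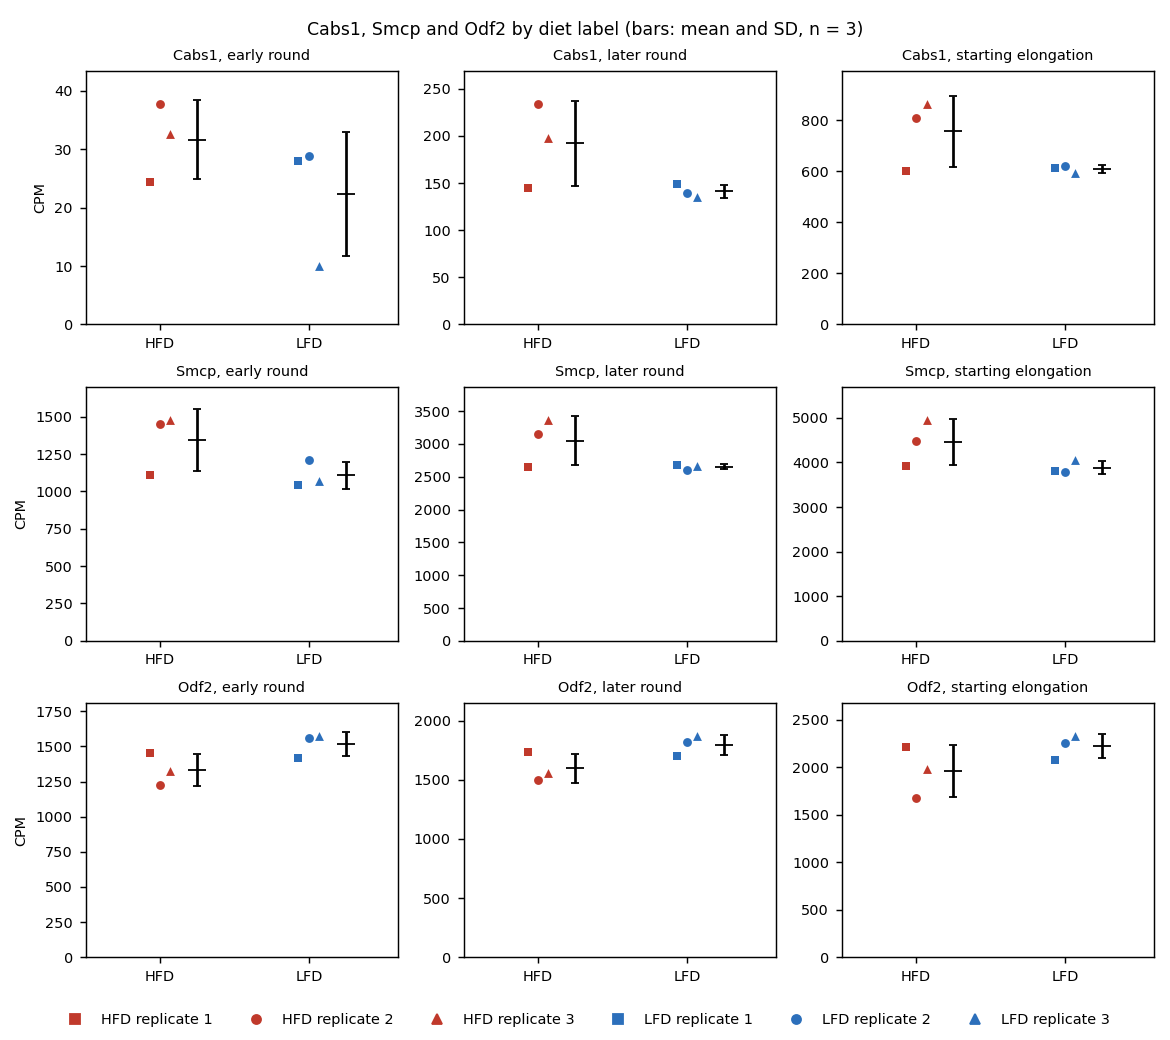
CPM of Cabs1, Smcp and Odf2 in early round, later round and starting elongation spermatids by diet label, one point per library (squares are the replicate 1 libraries), with the mean and SD of 3 beside them. HFD replicates 2 and 3 lie above the LFD libraries for Smcp in all 3 stages and HFD replicate 1 lies among them.

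Without HFD replicate 1 the calls changed. In early round spermatids 2 members passed, Smcp higher (0.37 ± 0.07, adjusted p = 0.0044) and Odf2 lower (-0.29 ± 0.07, adjusted p = 0.012), where 15.2% of all genes passed. In later round spermatids 5 passed, Cabs1 (0.54 ± 0.09, adjusted p = 0.0032) and Smcp higher and Odf2 (-0.30 ± 0.07, adjusted p = 0.013), Odf3 and Odf4 lower, where 8.81% of genes passed. At starting elongation 1 passed, Cabs1 (0.44 ± 0.08, adjusted p = 0.023), and 2.52% of genes. HFD replicate 1 is one of the libraries almost without haemoglobin, and LFD replicate 1 is the other. With both left out, a choice made after the data were seen that leaves 2 libraries per diet, Odf2 and Smcp passed in early round (7.78% of genes) and Odf2 and Cabs1 in later round spermatids (5.24% of genes), and no member at starting elongation, in elongating or late condensing spermatids or over all barcodes. Leaving out any other single library called no member in any of the 6 comparisons. Why the replicate 1 libraries differ was not tested.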

How the data were processed

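The deposited matrices hold UMI counts per gene and barcode for 6 libraries, which the authors made with Cell Ranger 6.0.1 against mm10 (per the labels and methods); nothing was normalized before deposit. The study's limits of 200 to 40000 genes removed 0 of 48939 barcodes, no doublets were removed, and libraries shared 12 to 28 barcode sequences. Barcodes were placed in stages by marker UMIs with at least 5000 UMIs (3000 for elongating and late condensing, 1000 for somatic types). The limits, among them the 0.4 Tnp2 share, were set after the marker distributions were seen so that each library had at least 20 barcodes per spermatid stage, and 30 barcodes in 2 gates were left out. The members, lists and tests were chosen with earlier results of these data known.

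UMIs were summed per library and stage, which makes the library the replicate. The quasi-likelihood test of edgeR 4.0.16, run in R 4.3.3, was applied to them after filterByExpr and TMM, with Benjamini-Hochberg adjustment over all genes and calls at an adjusted p under 0.05. Stages were compared with the library as a block, because each library gives every stage, and diets without one. SEs are the size of the log2 change divided by the root of F. The thinned share of macrophage barcodes with a Smcp UMI carries an exact interval. Other shares of barcodes are given without one, and most levels carry SDs or the lowest and highest library. Alternatives were DESeq2 1.42.0, library totals, no filter, a stricter gate, no barcodes in the top 5% of UMIs and each library left out; scaling per barcode and leaving out both replicate 1 libraries were added after seeing the data. Named accessory genes are the 3 with the largest rise and fall per step among those past the threshold, and the genes most like a member are the 3 with the highest r. The fits were tested on simulated data with known changes.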

Additional observations from a re-analysis of the deposited data

Results flagged for a closer look

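In elongating spermatids the Odf2 level of HFD replicate 2 was 2826 CPM, the lowest of 6 libraries, and the others ranged over 3323 to 3620. Its gap to the nearest library was 0.627 of the whole range, above Dixon's critical value for 6 samples. Over 48 groups of 6 libraries this was the 1 case, and chance gives about 1 in 20. Per barcode that library held 69.6 Odf2 UMIs and was not the lowest.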

How the results depend on the processing

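Between stages the scale mattered most. Per barcode 4, 5 and 3 members were called at starting elongation, in elongating and in late condensing spermatids. Per barcode the sign turned in elongating spermatids for Akap3 (-0.94), Akap4 (-0.035), Odf1 (-0.56), Odf2 (-0.17), Odf4 (-1.16) and Smcp (-0.14), and in late condensing spermatids for Akap4 (-0.12), Odf2 (-0.088), Odf4 (-0.53) and Cabs1 (-0.13). Library totals turned Akap3 (-0.10) and Odf4 (-0.32) in elongating spermatids. Genes higher and lower were 3969 and 7161 with library totals against 4557 and 4749 with TMM in later round, 3283 and 6989 against 4086 and 3711 at starting elongation, 1627 and 8009 against 3908 and 4727 in elongating and 2841 and 4706 against 4116 and 3831 in late condensing spermatids. Changes not past the threshold also turned: Cabs1 entering early round without both replicate 1 libraries (-0.14), Odf4 entering later round under the stricter gate (0.0105), and Odf4 at starting elongation with single libraries left out (-0.0532 to 0.0268). Without both replicate 1 libraries 4537 genes were called in late condensing spermatids against 7947. No stricter gate value exists there, since HFD replicate 2 has under 20 barcodes. The causes were not tested.

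Between diets 0 genes were called with all libraries. Leaving out single libraries gave 0 to 2 genes over all barcodes, 0 to 1886 in early round (0 to 2 members), 0 to 1083 in later round (0 to 5 members), 0 to 273 at starting elongation (0 to 1 members) and 0 to 5 in elongating spermatids. Without both replicate 1 libraries 93 genes were called over all barcodes, 947 in early round (2 members), 633 in later round (2 members) and 16 in late condensing spermatids. With no filter 17, 14, 2, 18 and 12 genes were called in the 5 stages in order. Same-numbered libraries of the diets deviated together with r of 0.568, -0.0401 and 0.133 for numbers 1, 2 and 3. The replicate 1 pair deviated together, and both of its libraries stood apart, but the other numbers gave no such pairing and not every library correlated best with its own number, so the numbers were not taken to pair the libraries. A replicate block called 24 genes over all barcodes and 4 in elongating spermatids, 0 in the other stages, and no member. Counting depth limits late condensing spermatids most, with 21 barcodes in one library.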
